A study of Mus musculus with 7 samples.

Results

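The genes of the NF-κB system described here are the 3 parts of the IκB kinase (IKK) complex (Chuk, Ikbkb and Ikbkg), the Rel family subunits (Nfkb1, Nfkb2, Rela, Relb and Rel) and 2 inhibitors (Nfkbia and Tnfaip3). They were chosen by name, and 9 of the 10 were found among the 23930 genes of the count tables; Nfkb1 was not analysed here. All 9 passed the filter on low counts, which left 11429 genes, although Relb passed only through its level in one group.

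The data are targeted RNA sequencing counts, 1 amplicon per gene, from 7 libraries of sorted mouse bone marrow progenitors. There were 2 libraries of common myeloid progenitors (CMPs, the precursors of granulocytes, monocytes, red cells and megakaryocytes) from C57BL/6 (BL/6) mice, 2 of CMPs from pMT-10 mice, 2 of pMT-10 lineage-negative SCA-1+ c-KIT+ (LSK) CD150+CD48+ cells, and 1 of pMT-10 haematopoietic stem cells (HSC). The pMT-10 strain overexpresses IL-10 from a transgene under a zinc-inducible metallothionein promoter, which can be active in many cell types. Every group, the BL/6 controls included, had zinc in the drinking water for 15 days, so no group shows the state without zinc. The labels give neither the age of the mice nor the CMP and HSC gates, and do not state whether the libraries within a group are from different animals. The p-values therefore measure the spread between libraries alone, which may be technical.

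Totals ran from 7372430 to 13854314 counts per library. Il10 had 0 to 2 counts in every library, which is under the floor of 3 counts used here, so its level could not be compared at this depth. One sequencing chip held the 4 pMT-10 libraries of CMPs and LSK CD150+CD48+ cells, and a second chip the HSC library with both BL/6 libraries. The chips are labelled with dates months apart, so chip here stands for all that may have differed between these dates. The pMT-10 CMP pair differed most (SD of the log2 difference across genes 0.823, against 0.385 for BL/6 CMPs and 0.474 for LSK CD150+CD48+ cells). Of the sort markers, Ly6a, which encodes SCA-1, was at 249 and 325 CPM (counts scaled to a common library size) in LSK CD150+CD48+ cells and at 331 CPM in HSC, and Cd48 was at 6.48 CPM in HSC against 40.5 and 63.6 CPM in LSK CD150+CD48+ cells. In CMPs Ly6a was at 0.0923 and 2.02 CPM in BL/6 mice and at 19.4 and 28.0 CPM in pMT-10 mice. Kit, which encodes c-KIT, also differed between the CMPs, at 303 and 274 CPM in BL/6 and 95.3 and 140 CPM in pMT-10 mice (-1.29 ± 0.25, adjusted p = 0.00623), and was at 81.2 and 118 CPM in LSK CD150+CD48+ cells and 157 CPM in HSC. The part of these marker differences in the strain comparison was not tested. The HSC markers Procr, Mecom and Fgd5 were at 38.5, 47.6 and 26.2 CPM in the HSC library and at 4.09 CPM or lower elsewhere.

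NF-κB is a family of dimeric transcription factors that are held in the cytoplasm by inhibitor proteins. In the canonical pathway the kinase IKKβ (Ikbkb), with the scaffold NEMO (Ikbkg), phosphorylates the inhibitor IκBα (Nfkbia), which is then degraded and frees dimers such as those of RelA with p50. In the non-canonical pathway IKKα (Chuk) drives the processing of the p100 precursor (Nfkb2) to p52, which acts with RelB. Nfkbia and Tnfaip3, which encodes the ubiquitin-editing enzyme A20, are induced by NF-κB and shut it off again, and in haematopoietic stem and progenitor cells the pathway takes part in survival and in the response to inflammation.

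In pMT-10 CMPs against BL/6 CMPs, Ikbkb rose and Chuk fell, and the other 7 members did not pass the test. Thus 2 of 9 members were called (22.2%), beside 28.0% of all tested genes (14.3% higher and 13.7% lower). In LSK CD150+CD48+ cells against CMPs of the same strain, Chuk and Nfkbia rose, again 2 of 9 members, beside 11.8% of all tested genes (5.92% higher and 5.92% lower). In HSC against LSK CD150+CD48+ cells, Chuk fell and no other member was called (1 of 9, 11.1%, beside 18.8% of all tested genes, 10.6% higher and 8.15% lower). With 1 or 2 members behind each share, none of these shares is read as a result about the members as a group. The libraries of the groups did not overlap for 5 of 9 members between the CMPs, beside 66.9% of all tested genes. The same held for 6 of 9 in LSK CD150+CD48+ cells against CMPs, beside 55.7%, with Relb among the 6 through the group that let it pass the filter, and for 7 of 9 in HSC against LSK CD150+CD48+ cells, beside 87.0%. The median log2 fold change of the 9 members was 0.10, 0.55 and -0.59 in these comparisons, beside medians of 0.01, -0.01 and 0.03 over all tested genes. Adjusted p-values throughout come from edgeR's quasi-likelihood test with Benjamini-Hochberg adjustment over every tested gene. A gene is called when that value is under 0.05. The 3 comparisons share libraries, the pMT-10 CMPs being in the strain comparison and in that with LSK CD150+CD48+ cells, and the LSK CD150+CD48+ cells also in that with HSC, so opposite signs in them are not separate observations. Counts of different amplicons are not per length, so levels are compared between groups and not between genes. In such bulk samples fewer cells with a transcript and less RNA per cell cannot be told apart.

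**Figure D1:**
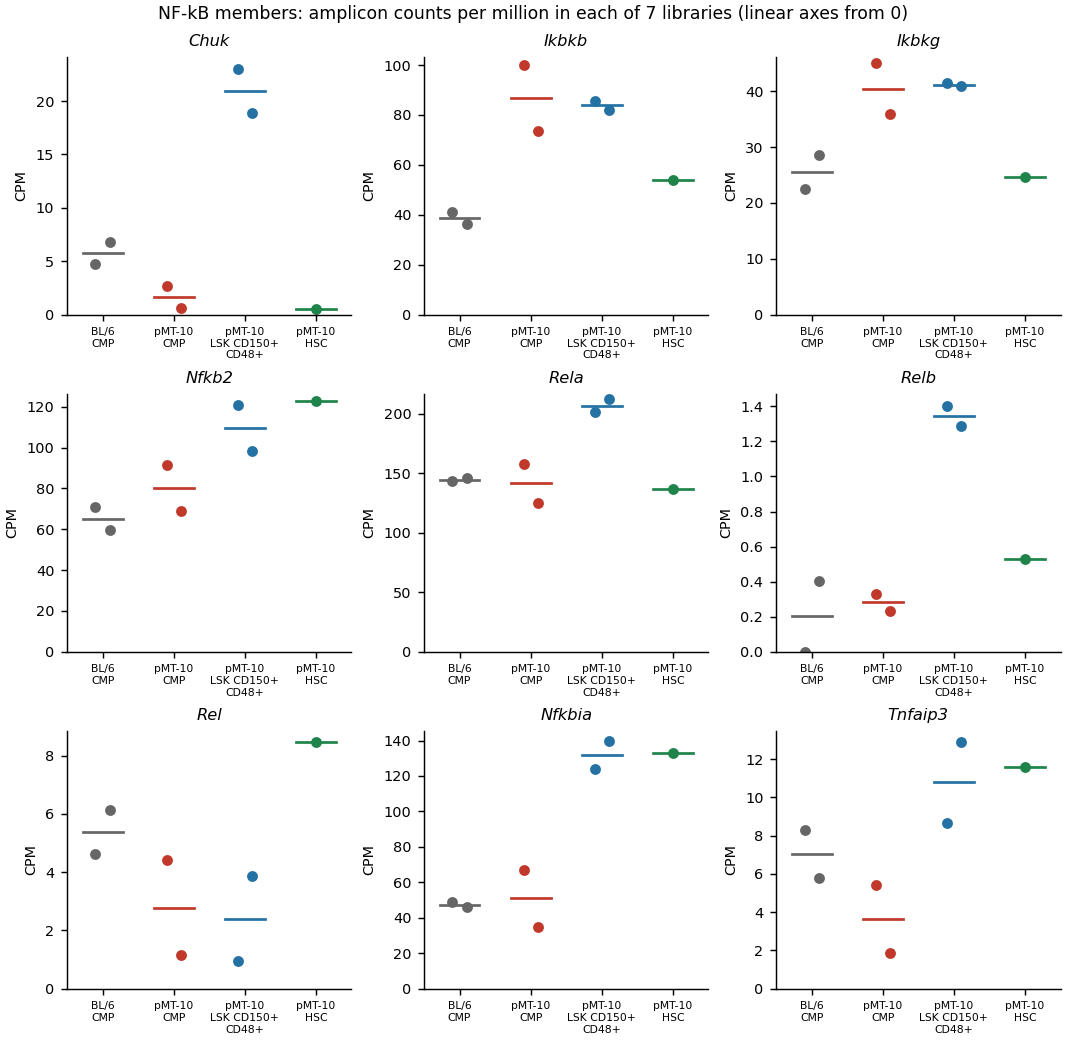
CPM of each gene's amplicon (vertical axes, linear from 0, one scale per gene) of the 9 measured members in each library. Points are libraries and bars are group means (n = 2, HSC n = 1). Chuk stands highest in LSK CD150+CD48+ cells (18.9 and 23.0 CPM), and Nfkbia is at 124 to 140 CPM in the 3 libraries of LSK CD150+CD48+ cells or HSC against 34.8 to 67.1 CPM in the CMPs of both strains.

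Chuk (chromosome 19, 44073335 to 44107480, minus strand, mm10), which encodes IKKα, varied most of the members. It was at 4.71 and 6.78 CPM in BL/6 CMPs, 2.65 and 0.579 CPM in pMT-10 CMPs, 23.0 and 18.9 CPM in LSK CD150+CD48+ cells and 0.529 CPM in HSC. The libraries of the groups did not overlap, and the highest group mean was 39.6 times the lowest. These levels rest on few reads in part, with 24 and 5 counts in CMPs of pMT-10 mice and 4 in HSC (exact Poisson 95% interval 0.144 to 1.35 CPM, counting error only).

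Between the CMPs Chuk fell in pMT-10 mice by 1.82 ± 0.54 on the log2 scale (SE, adjusted p = 0.0347). That size depended on the pMT-10 CMP pair, with a log2 fold change of -3.29 without replicate 1 and -1.12 without replicate 2. The call was lost without either BL/6 library (adjusted p = 0.0948 without replicate 1 and 0.187 without replicate 2), without either LSK CD150+CD48+ library (0.0938 and 0.092), and with only the CMP libraries in the fit (0.106). In LSK CD150+CD48+ cells against pMT-10 CMPs Chuk rose by 3.68 ± 0.54 (adjusted p = 0.00425), with 5.14 and 2.97 without pMT-10 CMP replicate 1 and 2, and the call was lost without LSK CD150+CD48+ replicate 1 (adjusted p = 0.0895) or 2 (0.0689). In HSC against LSK CD150+CD48+ cells it fell by 5.27 ± 0.87 (adjusted p = 0.0053), and this call was lost without LSK CD150+CD48+ replicate 1 (0.0662) or 2 (0.054). The 1 HSC library is assumed to vary like the other groups.

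Among the 11428 other tested genes, those whose log2 CPM followed Chuk most closely over the 7 libraries were Usp16, which encodes a deubiquitinase of histone H2A (Pearson r = 0.9972), Add1, the membrane skeleton protein adducin 1 (0.9954), and 2700094K13Rik (0.9938). In all, 72 genes had a correlation with Chuk above 0.95. Usp16 was at 13.1 and 15.6 CPM in BL/6 CMPs, 8.93 and 3.36 CPM in pMT-10 CMPs, 32.4 and 28.5 CPM in LSK CD150+CD48+ cells and 3.97 CPM in HSC. Add1 went from 28.3 and 39.8 CPM in BL/6 CMPs to 22.6 and 9.04 CPM in pMT-10 CMPs, 116 and 81.8 CPM in LSK CD150+CD48+ cells and 8.46 CPM in HSC. The same order of groups held for these genes as for Chuk, in means, with pMT-10 CMP replicate 2 well under replicate 1 in each. The correlations are over 7 libraries in 4 groups that differ in depth, chip and population.

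**Figure D2:**
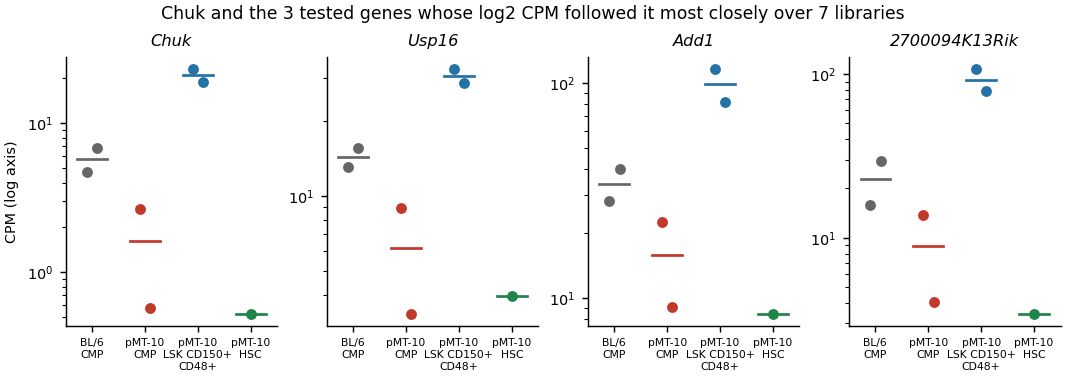
CPM (log axes, one scale per gene) of Chuk and of the 3 tested genes most like it over the 7 libraries. Points are libraries and bars are group means. In each panel LSK CD150+CD48+ cells are highest, and the lowest values are in pMT-10 CMP replicate 2 and the HSC library.

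Ikbkb (chromosome 8, 22659212 to 22706589, minus strand), which encodes IKKβ, the main kinase of IκBα, was at 41.3 and 36.2 CPM in BL/6 CMPs and at 100 and 73.4 CPM in pMT-10 CMPs. It was at 85.5 and 82.1 CPM in LSK CD150+CD48+ cells and at 54.0 CPM in HSC (408 counts, interval 48.8 to 59.4 CPM). All 5 pMT-10 libraries were above both BL/6 libraries, but the share of all tested genes with such a split was not counted. Between the CMPs alone, 66.9% of all tested genes did not overlap. Between the CMPs it rose by 1.17 ± 0.21 on the log2 scale, a 2.24-fold difference (38.7 ± 3.59 against 86.8 ± 18.9 CPM, SD, n = 2 each, adjusted p = 0.00531). The call was lost without BL/6 replicate 1 (adjusted p = 0.0539) or replicate 2 (0.0699). LSK CD150+CD48+ cells and pMT-10 CMPs overlapped (-0.05 ± 0.21, adjusted p = 0.897), and HSC against LSK CD150+CD48+ cells did not pass (-0.63 ± 0.26, adjusted p = 0.121).

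Ikbkg (chromosome X, 74393290 to 74453854, plus strand), the NEMO scaffold that ties both kinases to upstream ubiquitin chains, was at 22.5 and 28.5 CPM in BL/6 CMPs, 45.0 and 35.9 CPM in pMT-10 CMPs, 41.5 and 40.9 CPM in LSK CD150+CD48+ cells and 24.7 CPM in HSC. The HSC value lay between the BL/6 values, and the groups of CMPs did not overlap. The difference between the CMPs was 0.66 ± 0.23 on the log2 scale (adjusted p = 0.055), just outside the threshold. It passed with library totals and no composition factor (adjusted p = 0.0437), with DESeq2 (0.0477) and with a minimum count of 50 (0.0449). It did not pass with RLE factors (0.0518), no filter on low counts (0.0539), only the CMP libraries in the fit (0.0901) or the replicate block (0.0692). Without replicate 2 of the pMT-10 CMPs the difference was 0.82, and without replicate 1 it was 0.49. The log2 fold change was 0.02 ± 0.22 for LSK CD150+CD48+ cells against CMPs (adjusted p = 0.956), a sign that turned with library totals (-0.02), and -0.73 ± 0.29 for HSC against LSK CD150+CD48+ cells (adjusted p = 0.103).

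The levels of both genes also fell apart by sequencing chip, a split looked at after the values were seen. Ikbkb was at 73.4 to 100 CPM in the 4 libraries of the first chip and at 36.2 to 54.0 CPM in the 3 of the second, and Ikbkg at 35.9 to 45.0 against 22.5 to 28.5 CPM. Rel was split the other way, at 0.935 to 4.41 CPM on the first chip and 4.61 to 8.46 CPM on the second. Of all tested genes, 10.2% were higher in every library of the first chip and 11.5% lower. Strain and chip coincide in the CMPs and cannot be told apart there, and the same holds for population and chip in HSC against LSK CD150+CD48+ cells. The second chip holds 1 pMT-10 library, HSC, where Ikbkb was above both BL/6 libraries of that chip and Ikbkg was between them, but these differ in cell population as well. Of the called members, Chuk and Nfkbia overlapped between the chips, and their difference between LSK CD150+CD48+ cells and CMPs lies within the first chip.

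**Figure D3:**
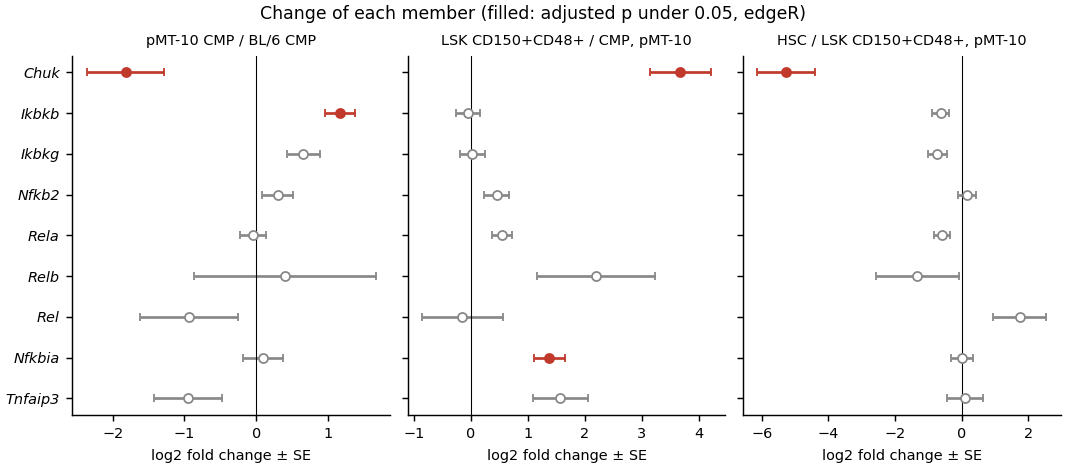
Log2 fold change of each member with its SE (horizontal axes, one scale per panel) in the 3 comparisons from the fit over all 7 libraries. Filled points passed an adjusted p of 0.05: Chuk (-1.82) and Ikbkb (1.17) between the CMPs, Chuk (3.68) and Nfkbia (1.38) for LSK CD150+CD48+ cells against CMPs, and Chuk (-5.27) for HSC against LSK CD150+CD48+ cells.

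Several NF-κB genes are known to be switched on by NF-κB itself through κB sites near their start. RefSeq promoter windows of mouse build GRCm38.p6 (300 bases, 250 before the start of a transcript and 50 after) were held for 7 of the 9 measured members, 13 windows in all, and were searched on both strands for the κB consensus motif. It was found in 6 of the 13 windows and in 4 of the 7 genes, Nfkbia, Tnfaip3, Nfkb2 and Rel, and in none of the windows of Chuk, Ikbkg and Rela. Of all 32851 windows 4.51% held it. A match is a description of these letters and not evidence of binding. The windows below are a window with a match from each of the 4 genes, and that of Chuk as the member whose level varied most. They are written along the strand of the gene, with matches in capitals, and lie at chr12:55492598-55492897 (Nfkbia, minus strand), chr10:19015361-19015660 (Tnfaip3, minus), chr19:46304487-46304786 (Nfkb2, plus), chr11:23770920-23771219 (Rel, minus) and chr19:44107428-44107727 (Chuk, minus).
Nfkbia: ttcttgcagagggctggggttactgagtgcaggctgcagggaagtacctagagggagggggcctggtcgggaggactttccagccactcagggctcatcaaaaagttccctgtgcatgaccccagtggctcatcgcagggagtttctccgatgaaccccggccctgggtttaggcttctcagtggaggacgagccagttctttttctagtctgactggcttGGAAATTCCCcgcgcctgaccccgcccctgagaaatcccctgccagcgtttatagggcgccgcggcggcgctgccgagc
Tnfaip3: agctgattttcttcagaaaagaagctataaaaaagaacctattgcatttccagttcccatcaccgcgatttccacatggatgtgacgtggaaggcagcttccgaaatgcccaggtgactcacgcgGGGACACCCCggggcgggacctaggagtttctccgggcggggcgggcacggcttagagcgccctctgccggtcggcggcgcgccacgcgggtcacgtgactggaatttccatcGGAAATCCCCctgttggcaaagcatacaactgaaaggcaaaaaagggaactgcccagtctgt
Nfkb2: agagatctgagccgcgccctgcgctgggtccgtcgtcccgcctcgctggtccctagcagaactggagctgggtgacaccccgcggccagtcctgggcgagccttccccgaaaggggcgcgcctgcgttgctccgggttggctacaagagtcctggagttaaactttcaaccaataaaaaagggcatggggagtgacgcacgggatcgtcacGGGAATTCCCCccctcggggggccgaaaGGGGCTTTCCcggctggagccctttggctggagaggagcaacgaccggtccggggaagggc
Rel: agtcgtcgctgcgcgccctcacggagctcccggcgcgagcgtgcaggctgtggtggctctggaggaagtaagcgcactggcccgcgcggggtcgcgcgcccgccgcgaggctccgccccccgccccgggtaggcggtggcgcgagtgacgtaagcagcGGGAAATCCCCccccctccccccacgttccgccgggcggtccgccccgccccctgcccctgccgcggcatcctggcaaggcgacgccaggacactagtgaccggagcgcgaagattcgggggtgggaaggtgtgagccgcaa
Chuk: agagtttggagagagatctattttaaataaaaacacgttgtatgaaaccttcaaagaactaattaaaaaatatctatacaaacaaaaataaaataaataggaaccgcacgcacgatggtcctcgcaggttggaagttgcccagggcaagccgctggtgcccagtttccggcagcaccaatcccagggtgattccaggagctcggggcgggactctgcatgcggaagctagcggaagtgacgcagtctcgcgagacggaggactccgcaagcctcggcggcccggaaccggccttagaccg

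The Nfkbia match began 29 bases before the start, and those of Tnfaip3 began 125 and 12 bases before it. In Rel, 2 overlapping matches began 92 and 91 bases before the start, and in Nfkb2 a pair of overlapping matches (39 and 38 bases) was followed by another at 11 bases. The remaining 2 Nfkb2 windows, which overlap each other, also held the motif. They share a match, so that site counts in both windows. The other Tnfaip3 window (chr10:19011914-19012213, minus) held no match.

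Rela (chromosome 19, 5637483 to 5648130, plus strand), the transactivating subunit of the canonical dimer, varied least of the members. It was at 143 and 146 CPM in BL/6 CMPs, 158 and 125 CPM in pMT-10 CMPs, 201 and 212 CPM in LSK CD150+CD48+ cells and 137 CPM in HSC. Only the LSK CD150+CD48+ libraries stood apart from the others, and the highest group mean was 1.51 times the lowest. The difference between the CMPs was -0.04 ± 0.18 on the log2 scale (adjusted p = 0.902), and its sign turned with library totals (0.01). Its level in LSK CD150+CD48+ cells differed from that in CMPs by 0.55 ± 0.18 (adjusted p = 0.0803), which passed without pMT-10 CMP replicate 1 (0.73, adjusted p = 0.00295) and was 0.39 without replicate 2 (0.0918). HSC differed from LSK CD150+CD48+ cells by -0.59 ± 0.23 (adjusted p = 0.101). With only those 2 groups in the fit the difference was -0.64 for Rela, -0.68 for Ikbkb and -0.78 for Ikbkg. These genes passed in that fit and without either pMT-10 CMP library. More of all tested genes were called in those fits too, so the passes are not particular to these members.

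Nfkb2 (chromosome 19, 46304320 to 46312385, plus strand), which encodes p100, was at 70.8 and 59.5 CPM in BL/6 CMPs and at 91.7 and 68.8 CPM in pMT-10 CMPs, which overlapped (0.30 ± 0.22, adjusted p = 0.319). That difference was 0.08 without pMT-10 CMP replicate 1 (adjusted p = 0.761) and passed without replicate 2 (0.49, adjusted p = 0.0466). It was at 121 and 98.3 CPM in LSK CD150+CD48+ cells and at 123 CPM in HSC (928 counts). All 3 of these libraries were above all 4 CMP libraries, but the share of all tested genes with such a split was not counted. The fitted difference between LSK CD150+CD48+ cells and pMT-10 CMPs did not pass (0.45 ± 0.22, adjusted p = 0.192). It passed without pMT-10 CMP replicate 1 (0.67, adjusted p = 0.0143) and was 0.26 without replicate 2 (0.344). HSC and LSK CD150+CD48+ cells differed by 0.16 ± 0.26 (adjusted p = 0.692).

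Relb (chromosome 7, 19606217 to 19629438, minus strand), the partner of p52 in the non-canonical dimer, was near the limit of detection. It had 0 and 5 counts in BL/6 CMPs, 3 and 2 in pMT-10 CMPs, 4 in HSC and, in LSK CD150+CD48+ cells, 12 and 18. Only LSK CD150+CD48+ cells had more than 5 counts in a library, and it was through them that the gene passed the filter. Since that group let the gene in, its higher level there is a description and supports no difference, and the test between libraries did not pass (adjusted p = 0.187). Between the CMPs, with 5 counts in each pair, no difference was detectable at this depth.

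Rel (chromosome 11, 23736847 to 23770970, minus strand), which encodes c-Rel, a subunit best known from lymphoid cells, was at 4.61 and 6.14 CPM in BL/6 CMPs, 4.41 and 1.16 CPM in pMT-10 CMPs, 0.935 and 3.88 CPM in LSK CD150+CD48+ cells and 8.46 CPM in HSC (64 counts, interval 6.52 to 10.8 CPM). The HSC library was the highest and both pairs of the first chip spread widely. No comparison passed, with -0.94 ± 0.68 between the CMPs (adjusted p = 0.324), -0.15 ± 0.71 for LSK CD150+CD48+ cells against CMPs (0.912) and 1.74 ± 0.79 for HSC against LSK CD150+CD48+ cells (0.149). The last passed with no filter on low counts (adjusted p = 0.0156), and did not pass with RLE factors, library totals, DESeq2 or a minimum count of 50. It also passed with only those 2 groups in the fit (1.68) and without pMT-10 CMP replicate 1 (1.71) or 2 (1.7). More of all tested genes were called in those fits too. It was 1.12 without LSK CD150+CD48+ replicate 1 (adjusted p = 0.448) and 3.16 without replicate 2 (0.119). The difference between the CMPs passed without pMT-10 CMP replicate 1 (-2.21, adjusted p = 0.0199) and was -0.29 without replicate 2 (0.697).

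Nfkbia (chromosome 12, 55489410 to 55492647, minus strand), the IκBα gene and a widely used readout of NF-κB activity, split by population. It was at 48.7 and 46.1 CPM in BL/6 CMPs, 67.1 and 34.8 CPM in pMT-10 CMPs, 124 and 140 CPM in LSK CD150+CD48+ cells and 133 CPM in HSC (1007 counts, interval 125 to 142 CPM). The 3 libraries of the more primitive cells were above all 4 CMP libraries, but the share of all tested genes with such a split was not counted. Between LSK CD150+CD48+ cells and pMT-10 CMPs alone, 55.7% of all tested genes did not overlap. Nfkbia rose by 1.38 ± 0.28 on the log2 scale in LSK CD150+CD48+ cells against CMPs, a 2.60-fold difference (132 ± 11.2 against 50.9 ± 22.8 CPM, adjusted p = 0.0177), and the call was lost without LSK CD150+CD48+ replicate 1 (0.139) or 2 (0.149). The BL/6 libraries lay between the pMT-10 CMP libraries (0.10 ± 0.28, adjusted p = 0.809). The sign of that difference turned without pMT-10 CMP replicate 1 (-0.45, adjusted p = 0.0616), and without replicate 2 it passed as higher in pMT-10 CMPs (0.50, adjusted p = 0.0324). HSC and LSK CD150+CD48+ cells differed by 0.01 ± 0.34 (adjusted p = 0.986).

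Tnfaip3 (chromosome 10, 19000910 to 19015657, minus strand) was at 8.31 and 5.81 CPM in BL/6 CMPs, 5.40 and 1.85 CPM in pMT-10 CMPs, 8.65 and 12.9 CPM in LSK CD150+CD48+ cells and 11.6 CPM in HSC (88 counts, interval 9.33 to 14.3 CPM). The pMT-10 CMPs were the lowest group and did not overlap with the BL/6 CMPs, although the nearest libraries, at 5.40 and 5.81 CPM, were close. That difference was -0.95 ± 0.48 on the log2 scale (adjusted p = 0.169) and turned on the pMT-10 CMP pair, passing without replicate 1 (-1.92, adjusted p = 0.00342) and not without replicate 2 (-0.38, adjusted p = 0.442). In LSK CD150+CD48+ cells against CMPs it was 1.57 ± 0.48 (adjusted p = 0.0631), which passed with DESeq2 (adjusted p = 0.0373), with no filter on low counts (0.00132) and without pMT-10 CMP replicate 1 (2.55, adjusted p = 0.000506). It was 1.01 without pMT-10 CMP replicate 2 (adjusted p = 0.0614) and 1.24 without LSK CD150+CD48+ replicate 2 (0.326). HSC differed from LSK CD150+CD48+ cells by 0.10 ± 0.55 (adjusted p = 0.913).

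Described over the 7 libraries, log2 CPM of Nfkbia went with that of Nfkb2 (Pearson r = 0.90) and Tnfaip3 (0.82), and that of Ikbkb with Ikbkg (0.89), while Chuk went with Rela (0.88) and hardly with Ikbkb (0.13). These points share 4 groups and 2 chips, and no test was made of them.

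Other genes of the pathway were counted in lists chosen for their known roles, of which 110 of 117 genes were in the tables and 91 passed the filter and were tested. Between the CMPs 34 rose and 7 fell in pMT-10 mice, 45.1% of those tested beside 28.0% of all genes, with a median log2 fold change of 0.54. Of the erythroblast markers, Slc4a1 was at 5.54 and 5.49 CPM in BL/6 CMPs and at 1.87 and 0.116 CPM in pMT-10 CMPs. Epb42 (9.60 and 8.40 against 4.85 and 9.96 CPM) overlapped between the strains, and Alas2 was at 1.20 and 1.21 against 2.21 and 1.51 CPM. The part of erythroblasts in the result was not tested. The count of pathway genes called fell without either BL/6 library. That of all genes called also shifted widely when 1 library was left out.

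Of 38 tested receptors, adaptors and kinases upstream of IKK, 13 rose and 4 fell between the CMPs (44.7%, beside 28.0% of all tested genes, median 0.40). Card9, the adaptor that couples fungal recognition receptors to IKK, was at 25.2 and 20.9 CPM in BL/6 CMPs and at 139 and 151 CPM in pMT-10 CMPs (2.65 ± 0.24, adjusted p = 0.000545). Birc2, which encodes the ubiquitin ligase cIAP1, rose by 1.35 ± 0.24 and Rbck1, a part of the linear ubiquitin chain assembly complex, by 0.91 ± 0.17. Those that fell included both Tab2 (-1.33 ± 0.19) and Tab3 (-0.77 ± 0.21), the ubiquitin-binding partners of the kinase TAK1. The IL-1 receptor gene Il1r1 also fell, at 8.49 and 10.8 CPM in BL/6 and 2.98 and 3.01 CPM in pMT-10 CMPs. Il1r1 and Tab2 were lower in every library of the first chip, as 11.5% of all tested genes were. Il1r1 was at 0.719 to 3.01 CPM there and at 8.49 to 10.8 CPM on the second chip. Tab2 was at 76.7 to 129 against 186 to 242 CPM. Other genes named from the lists also split by chip, among them Rnf11, Rnf31, Fbxw11, Irak3 and Tapbp.

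Of 26 tested inhibitors and brakes other than the members, 9 rose and 1 fell (38.5%, beside 28.0% of all tested genes, median 0.26). The list also holds genes that are not plain inhibitors, such as Fbxw11, so its counts give no direction of pathway activity. Nfkbid, a nuclear IκB protein, was at 11.4 and 11.0 CPM in BL/6 CMPs and at 34.3 and 36.3 CPM in pMT-10 CMPs (1.66 ± 0.24, adjusted p = 0.00249). Rnf11, a partner of A20 in its ubiquitin-editing complex, rose by 1.22 ± 0.20 and Usp18, an interferon-induced protease of ISG15, by 1.45 ± 0.25. Itch, a ubiquitin ligase of the A20 complex, was the one that fell (-0.65 ± 0.21, adjusted p = 0.0454).

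Of 27 tested target genes 12 rose and 2 fell (51.9%, beside 28.0% of all tested genes, median 0.83), a list of which 42 genes were measured. Irf1, at 63.2 and 76.2 CPM in BL/6 CMPs and 420 and 331 CPM in pMT-10 CMPs, rose by 2.43 ± 0.20 (adjusted p = 0.000403). Gadd45b, a stress-response gene, rose by 2.35 ± 0.31 and Csf1, which encodes M-CSF, by 2.17 ± 0.31. Xiap, a caspase inhibitor (-0.81 ± 0.23), and Tnfaip2 (-0.68 ± 0.18) fell. Irf1, Cxcl10, Ccl5, Icam1, Tapbp and B2m, all among those that rose, are also known as interferon-induced genes. Of the 29 listed targets that had a RefSeq promoter window, 12 held the κB motif in one (41.4%), as did 7 of 20 brakes and 6 of 32 upstream genes (18.8%), beside 5.14% of all genes with a window.

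**Figure D4:**
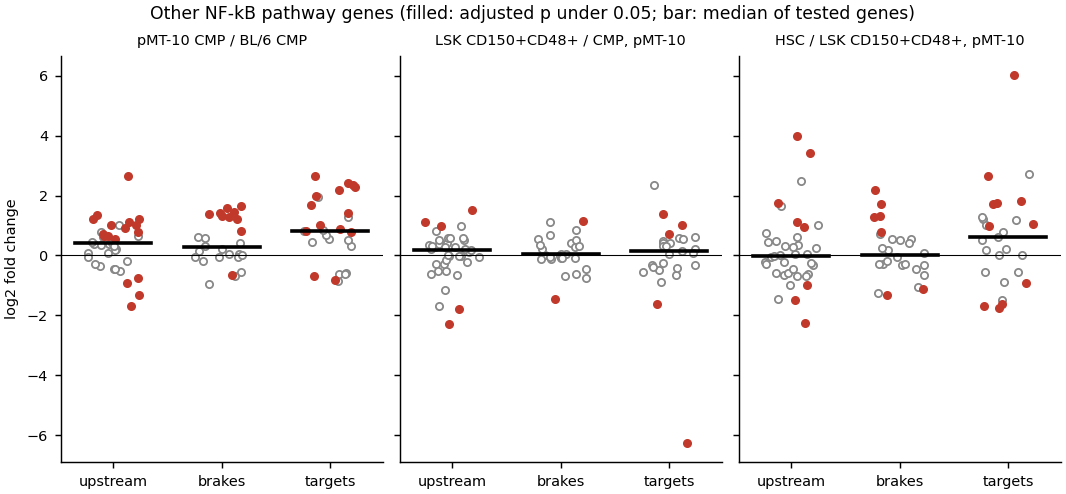
Log2 fold changes (vertical axis, shared) of the tested genes of the 3 pathway lists in each comparison. Filled points passed an adjusted p of 0.05 and bars are list medians, which are 0.40, 0.26 and 0.83 between the CMPs. The points farthest from 0 among the targets in the panels that involve LSK CD150+CD48+ cells are Ccl3, with 0 and 1 counts in the LSK CD150+CD48+ libraries, so their position depends on the fit and is no measure of size.

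In LSK CD150+CD48+ cells against pMT-10 CMPs 7 of the 91 pathway genes rose and 5 fell (13.2%, beside 11.8% of all genes), with a median of 0.11. Ltbr, the lymphotoxin β receptor that feeds the non-canonical pathway, had a mean of 24.7 ± 0.5 CPM in CMPs and was at 58.1 and 48.7 CPM in LSK CD150+CD48+ cells (1.11 ± 0.22, adjusted p = 0.0142). Tradd (1.51 ± 0.42) and Ticam1 (0.99 ± 0.27), adaptors of the TNF receptor and of Toll-like receptors, also rose. Card9 fell to 35.1 and 24.2 CPM (-2.29 ± 0.24) and Il1r1 to 1.05 and 0.719 CPM (-1.78 ± 0.43). Among the brakes Tnip3 rose (1.15 ± 0.31) and Nlrc3 fell (-1.44 ± 0.28). Tapbp (1.01 ± 0.18), Cxcl10 (1.39 ± 0.37) and Irf1 (0.73 ± 0.19) rose among the targets, Il15 fell (-1.61 ± 0.29), and Ccl3 went from 53 and 25 counts to 0 and 1. The count of 12 shifted widely when 1 library was left out, as did that of all genes called.

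In HSC against LSK CD150+CD48+ cells 17 of the 91 rose and 9 fell (28.6%, beside 18.8% of all genes; median 0.07). Il1r1 stood at 9.26 CPM in HSC (3.41 ± 0.46, adjusted p = 0.00251), between the BL/6 CMP values of the same chip (8.49 and 10.8 CPM). Myd88, the adaptor of IL-1 and Toll-like receptors, was at 141 CPM against 70.2 and 60.8 CPM (1.10 ± 0.21). Map3k8, the kinase TPL2, had 34 counts in HSC and 3 in each LSK CD150+CD48+ library. Tradd (-2.26 ± 0.59), Ticam1 (-1.50 ± 0.36) and Rnf31 (-0.98 ± 0.24) fell. In the list of brakes Tnip3 (42.1 against 9.82 and 8.85 CPM), Nfkbiz (1.71 ± 0.35) and Irak3 (1.28 ± 0.24) rose. Fbxw11 (-1.11 ± 0.26) and Ppp6c (-1.31 ± 0.34) of that list fell. Fbxw11 encodes a ubiquitin ligase subunit that recognises phosphorylated IκBα, and so is not itself a brake. Among the targets Il15 (2.66 ± 0.33) and Junb (1.04 ± 0.22) rose and Ccl3 had 28 counts in HSC, while Tapbp (-1.63 ± 0.23), Tnfaip2 (-1.69 ± 0.24) and Stat5a (-1.75 ± 0.28) fell. Markers of mature neutrophils summed to 18.0 CPM in HSC and to 1.64 and 12.2 CPM in LSK CD150+CD48+ cells over 8 genes, with Ly6g at 0 in HSC, and the B cell gene Cd79b was at 52.2 against 15.4 and 16.8 CPM, while Ms4a1 was at 0.117 CPM or lower in every library. Their part in the result was not tested. The count of 26 rests on 1 HSC library and on chips that coincide with the populations. It shifted widely when 1 library was left out, as did the count of all genes called.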

How the data were processed

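Per the labels' protocols, sorted cells gave total RNA for Ion AmpliSeq Transcriptome mouse libraries. The authors deposited unnormalized whole-number counts, a table for each sequencing chip with 1 amplicon per gene. Reads were placed on mm10, per the submitters' processing notes; aligner and counting program: not given in the sources used. Since reads carry no molecular identifiers, intervals and floors hold counting error alone. A count of 0 allows up to 3 counts, 0.216 to 0.397 CPM.

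The tests used edgeR 4.0.16 in R 4.3.3: filterByExpr (minimum count 10), TMM factors, 1 mean per group over 7 libraries (3 residual degrees of freedom), robust quasi-likelihood F-tests, Benjamini-Hochberg adjustment over 11429 genes. SEs derive from the same fit, and CPM use TMM-scaled totals. Correlations use log2 CPM with a prior count of 2. The analysis was tested on simulated counts, which held no chip effect, so that test does not bear on the chips. Alternatives were RLE factors, library totals, DESeq2 1.42.0, no filter, a minimum count of 50, fewer groups, a replicate block and each replicate left out. Members, lists and tests were chosen with earlier results of these data known. All members are named, with up to 3 called genes of smallest p per list, direction and comparison, the 3 genes most like the member with the widest range, and preset markers; a few others are examples chosen after their values were seen. Gene positions are from GENCODE M21 (mm10), and those of the amplicons are not used here. Promoter sequences are from RefSeq, GRCm38.p6, which held no entry for Ikbkb and Relb. Some genes of the marker lists are not reported here.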

Additional observations from a re-analysis of the deposited data

How the results depend on the processing

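Of 338 values of single members under the alternatives, 283 kept their sign and side of the threshold. Apart from leave-one-out fits, 5 turned sign, all near 0: with library totals Rela between the CMPs (0.01) and Ikbkg for LSK CD150+CD48+ cells against CMPs (-0.02), and for Nfkbia in HSC against LSK CD150+CD48+ cells with no filter (-0.02), a minimum count of 50 (-0.01) and only those groups in the fit (-0.03). With only the groups compared, 1 member was called between the CMPs. In that setting LSK CD150+CD48+ cells against CMPs gave 595 genes and 6 pathway genes, and HSC against LSK CD150+CD48+ cells gave 3987 genes, 5 members and 42 pathway genes. With no filter LSK CD150+CD48+ cells against CMPs gave 2234 genes, and HSC against LSK CD150+CD48+ cells 2 members.

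Leaving out 1 library at a time, the genes called ranged from 582 to 5257 between the CMPs (3204 with every library), from 44 to 4267 for LSK CD150+CD48+ cells against CMPs (1354) and from 266 to 4807 for HSC against LSK CD150+CD48+ cells (2147). Members called ranged from 0 to 5 in each comparison, and pathway genes from 8 to 55, 1 to 37 and 4 to 48. The sign turned within these ranges of log2 fold change: between the CMPs Nfkbia (-0.45 to 0.50), Rela (-0.21 to 0.12) and Relb (-0.50 to 4.53, which rests on a library with 0 counts); for LSK CD150+CD48+ cells against CMPs Ikbkb (-0.26 to 0.19), Ikbkg (-0.13 to 0.20) and Rel (-1.57 to 1.15); for HSC against LSK CD150+CD48+ cells Nfkbia (-0.07 to 0.10) and Tnfaip3 (-0.15 to 0.43). Where 1 library remained in a group, its spread was taken from the other groups, and fewer libraries leave fewer residual degrees of freedom; the cause of the other shifts was not tested.

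Replicate numbers share only a number: the log2 differences of same-numbered pairs correlated at -0.019, -0.019 and -0.076 across genes. With the replicate block over the 6 numbered libraries, 2978 genes, 2 members and 38 pathway genes were called between the CMPs and 1181, 2 and 8 for LSK CD150+CD48+ cells against CMPs, and no member's call changed. No paired analysis was possible for HSC because its 1 library has no number. Depth limits Relb, Rel, Tnfaip3 and Chuk, each with under 100 counts in most libraries.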
